A study of Homo sapiens with 4 samples.

Results

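ATF4, its partner transcription factors and the regulators it induces under stress were examined in NK-92 cells (a human line of natural killer cells, kept in medium with interleukin 2) after lentiviral delivery of a short hairpin RNA against ADAR1. The group holds 10 genes of the 20323 in the deposited table, namely ATF4, ATF3, ATF5, DDIT3, CEBPB, CEBPG, TRIB3, SESN2, DDIT4 and INHBE. They were chosen by pathway from the RNA levels of these same 4 libraries, so the levels are given as a description and carry no test. The NK scramble group (2 libraries) carried a scrambled hairpin, and the NK shADAR1 group (2 libraries) a hairpin against ADAR1, the RNA-editing enzyme encoded by ADAR. All 4 libraries were made from polyadenylated RNA of this single line after the same lentiviral transduction. Labels carry the numbers 1 and 2 in each group, and those of the knockdown libraries read shADAR1-1 and shADAR1-2. The study also uses these 2 names for different hairpins, and its text names shADAR1-2 as the hairpin of the sequenced cells. The numbers were taken to mean independent replicates, as the series' design text has it. Whether both knockdown libraries carried the same hairpin cannot be told from the labels. Nothing describes how the cultures were kept apart, so the spread between replicates may be partly technical.

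ATF4 is a basic leucine zipper (bZIP) transcription factor at the end of the integrated stress response. When a stress kinase, such as the double-stranded RNA sensor PKR or the amino acid sensor GCN2, phosphorylates eIF2 alpha, most translation falls while that of the ATF4 mRNA rises. ATF4 then pairs with C/EBP family proteins on composite DNA elements and switches on genes for amino acid uptake and synthesis, together with feedback inhibitors and brakes on mTORC1. Much of ATF4 control lies in translation, which RNA levels do not show.

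The libraries held 37881704 to 39960491 estimated counts, and 13879 to 14204 genes had at least 1 count. Levels are given as CPM, the count scaled to a common library size after TMM normalization, for replicate 1 and then replicate 2. ADAR RNA stood at 655 and 682 CPM in the controls against 575 and 482 CPM in the knockdown libraries, and the edgeR log2 fold change was -0.34 ± 0.20 (SE). The unadjusted p in edgeR was 0.13, so these libraries do not establish the knockdown by themselves. The study reports it by qRT-PCR and western blotting. The NK cell markers summed to 6345 to 7455 CPM in every library. In the T cell list CD3E, TRAC, TRBC1, TRBC2 and CD28 were present, and CD8A and CD8B were at 0. The rest of that list, CD3D, CD3G, CD4 and CD5, did not exceed 0.610 CPM. The list summed to 904 to 1172 CPM in NK scramble and 1125 to 1258 CPM in NK shADAR1 cells. B cell, myeloid and epithelial lists summed to 20.1 to 46.2, 22.2 to 30.7 and 56.3 to 66.0 CPM, and the B cell sum was nearly all PAX5 (19.1 to 43.8 CPM), the myeloid sum nearly all ITGAM (19.8 to 27.0 CPM) and the epithelial sum nearly all GATA3 (55.96 to 66.0 CPM), a factor that NK cells also express. MS4A1 and S100A8 were at 0, and EPCAM and CDH1 did not exceed 0.102 CPM. Ribosomal protein genes took 6.33% and 6.31% of counts in the replicates numbered 1 and 8.09% and 8.53% in those numbered 2. Their part in the values below was not tested.

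The C/EBP-ATF composite element, the DNA sequence that ATF4 and C/EBP proteins bind together, was sought in the promoters of the members as TGATGNAA on both strands. RefSeq promoter windows (GRCh38.p14, 250 bases before to 50 after a transcript start) were at hand for 9 members, INHBE not among them. Matches lay in windows of ATF3 and CEBPG, and they are shown because these genes encode factors that can occupy such elements themselves. Capitals mark the match, and each sequence is on the plus strand, 5′ to 3′.

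ATF3, chr1:212565205-212565234, match starting 191 bases before the transcript start: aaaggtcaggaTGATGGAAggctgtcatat

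CEBPG, chr19:33374060-33374089, match starting 42 bases before a transcript start and inside the gene's span but in no annotated exon: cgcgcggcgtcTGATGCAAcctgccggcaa

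The element occurred in 3.62% of all 35116 promoter windows and in a window of 2.72% of the 9535 tested genes that had one. The cyclic AMP response element TGACGTCA, which bZIP factors also bind, was in a window of 0 of the 9 members and of 3.85% of those tested genes. A match is a description of the letters only, and elements that lie farther from a start were outside these windows.

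All 10 members passed the count filter, which 11810 genes passed. Their level per transcript length, as the authors' FPKM, set 2 members far above the others. ATF4 averaged 313 ± 52.99 FPKM (SD over 4 libraries) and DDIT4 258 ± 83.7 FPKM, ranks 231 and 279 in the table. The values of these 2 genes overlapped each other and neither overlapped the next gene. CEBPG (14.8 to 19.3 FPKM), TRIB3 (13.3 to 27.1), SESN2 (9.87 to 24.0), CEBPB (5.61 to 27.9) and DDIT3 (9.07 to 11.7) followed, with overlapping ranges between neighbours. ATF5 (5.84 to 8.14 FPKM), ATF3 (1.85 to 8.44) and INHBE (1.90 to 6.05) formed the lowest tier, where neighbours again overlapped. The lowest value of DDIT3 lay above the highest of ATF5. Within this order CEBPB varied most among the libraries relative to its mean, and CEBPG and DDIT3 were among the steadiest.

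ATF4 RNA was 546 and 445 CPM in the controls and 368 and 424 CPM after knockdown. Both knockdown libraries lay below both controls, but NK shADAR1 replicate 2 was close to NK scramble replicate 2. The group means were 495 ± 71.4 and 396 ± 39.7 CPM (SD, n = 2), and the fitted log2 fold change was -0.32 ± 0.21 (SE). It was -0.17 without NK scramble replicate 1 and -0.47 without NK scramble replicate 2.

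**Figure D1:**
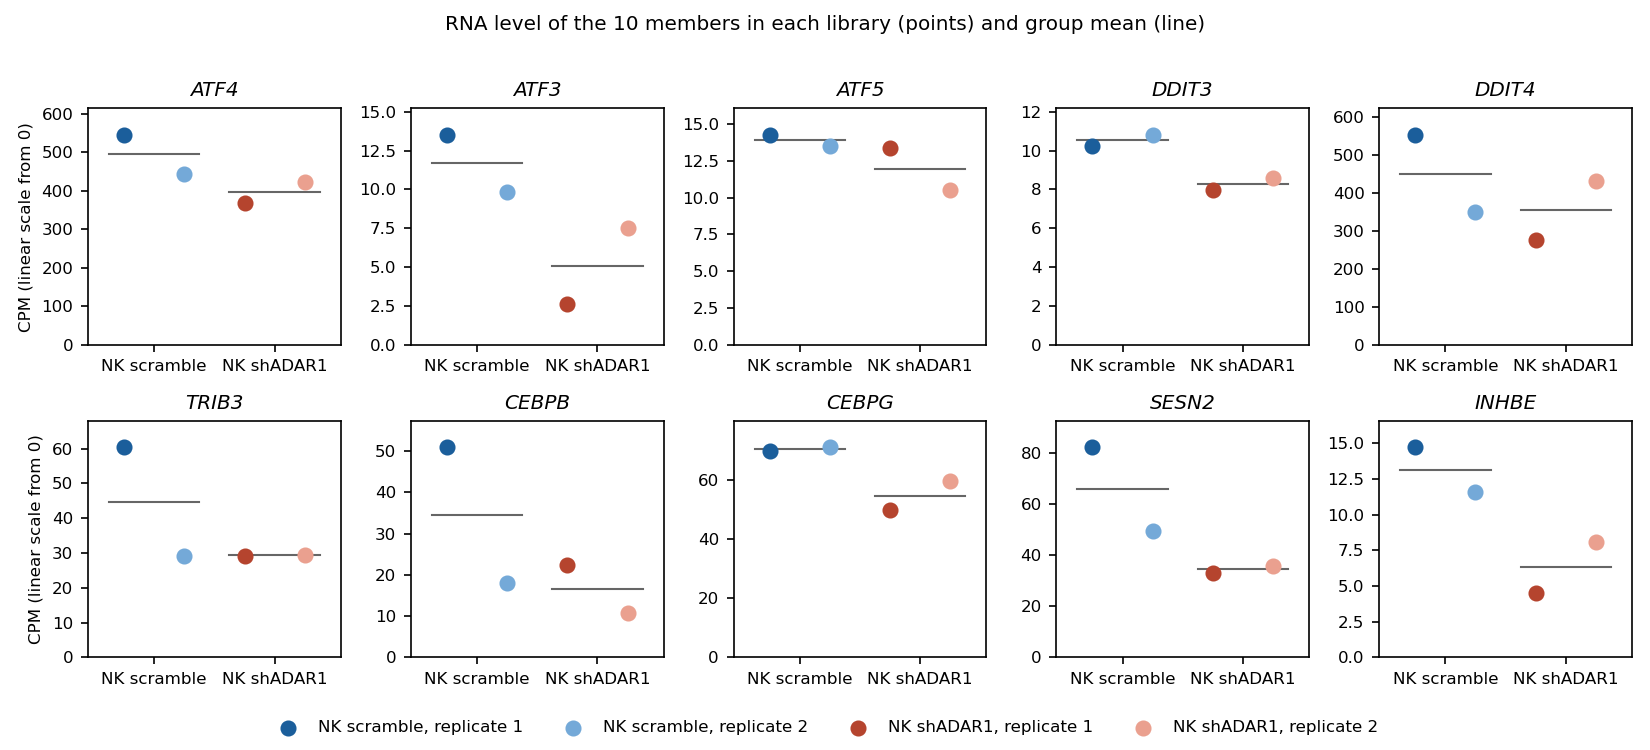
RNA level of each of the 10 genes in CPM (vertical axis, linear from 0, scaled per gene), with 1 point per library and a line at each group mean. NK scramble replicate 1 is the highest point in 8 of the 10 panels, and TRIB3 is at 60.3 CPM there against 29.2 to 29.5 CPM in the other libraries.

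Among the partner factors, CEBPG and DDIT3 separated the groups with little spread between the controls. CEBPG, a short C/EBP protein that heterodimerizes with ATF4, was at 69.8 and 71.0 CPM in the controls and at 49.8 and 59.5 CPM after knockdown. Its log2 fold change of -0.37 ± 0.20 (SE) was almost the same against either control, at -0.35 against replicate 1 and -0.38 against replicate 2. The knockdown library mattered more, with -0.24 without NK shADAR1 replicate 1 and -0.50 without NK shADAR1 replicate 2. DDIT3, which encodes CHOP, a C/EBP-related factor tied to prolonged stress, was at 10.2 and 10.8 CPM in the controls and at 7.98 and 8.60 CPM after knockdown. Its log2 fold change was -0.35 ± 0.24 (SE), with -0.31 and -0.38 against the controls taken apart. For these 2 genes the choice of control library hardly moved the value. The deposited DDIT3 counts are fractional, and in GENCODE release 29 its exons overlap those of MARS and MBD6 on the opposite strand and of AC022506.1 on the same strand, so reads could have been divided among them.

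ATF5, a relative of ATF4 whose translation is controlled in a similar way, had the smallest fitted difference of the 10. It was at 14.3 and 13.5 CPM in the controls and at 13.4 and 10.5 CPM after knockdown. NK scramble replicate 2 and NK shADAR1 replicate 1 were nearly equal. The log2 fold change was -0.22 ± 0.23 (SE), or -0.40 without NK shADAR1 replicate 1 and -0.05 without NK shADAR1 replicate 2. Its counts are fractional too, and its exons overlap those of IL4I1 and NUP62 on the opposite strand.

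ATF3, a stress-induced bZIP factor that often acts as a repressor, had the largest fitted difference of the members with all 4 libraries, though not without NK scramble replicate 2 or NK shADAR1 replicate 1. It was at 13.5 and 9.82 CPM in the controls and at 2.64 and 7.52 CPM after knockdown. The knockdown libraries were both lower, but they differed from each other 2.85-fold, more than the controls did (1.38-fold). The lowest value rests on 104 counts (exact Poisson 95% interval 85.0 to 126, for counting error only), and the 281 counts of NK shADAR1 replicate 2 lay outside that interval. The log2 fold change was -1.20 ± 0.42 (SE). It was -0.63 without NK shADAR1 replicate 1, where CEBPB, SESN2 and INHBE exceeded it, and -2.14 without NK shADAR1 replicate 2.

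CEBPB, which encodes C/EBP beta, a partner of ATF4 and a factor of inflammatory genes, did not separate the groups. It was at 50.9 and 18.02 CPM in the controls and at 22.4 and 10.7 CPM after knockdown. NK scramble replicate 1 was 2.82-fold above replicate 2, the widest gap between controls among the members. The fitted log2 fold change of -1.06 ± 0.45 (SE) became -0.13 without NK scramble replicate 1, -1.63 without NK scramble replicate 2, -1.69 without NK shADAR1 replicate 1 and -0.62 without NK shADAR1 replicate 2. In both groups the replicate numbered 1 was the higher one. Taken by number, the knockdown library was lower than the control in each pair, at -1.18 for replicate 1 and -0.75 for replicate 2 on the log2 scale. With a replicate block the log2 fold change was -0.98, though the labels give no pairing beyond the number. CEBPB and DDIT4 have annotated antisense neighbours, CEBPB-AS1 and DDIT4-AS1, and whether counting used strand is not given in the sources used here.

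TRIB3, a pseudokinase that ATF4 induces and that restrains ATF4 in return, was high in 1 library alone. It was at 60.3 CPM in NK scramble replicate 1 and at 29.2, 29.2 and 29.5 CPM in the second control and both knockdown libraries. The fitted log2 fold change of -0.61 ± 0.30 (SE) was thus set by NK scramble replicate 1, and it was 0.0061 without that library and -1.04 without NK scramble replicate 2.

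Of the brakes on mTORC1, the growth kinase complex that senses amino acids, SESN2 separated the groups and DDIT4 did not. SESN2, a leucine sensor that restrains mTORC1, was at 82.2 and 49.7 CPM in the controls and at 32.9 and 36.0 CPM after knockdown. Its knockdown libraries agreed closely while its controls differed 1.66-fold. The log2 fold change was -0.94 ± 0.25 (SE), or -0.53 without NK scramble replicate 1. DDIT4, also known as REDD1, restrains mTORC1 through the TSC1-TSC2 complex. It was at 553 and 348 CPM in the controls and at 276 and 430 CPM after knockdown. NK shADAR1 replicate 2 therefore lay above NK scramble replicate 2, and the log2 fold change of -0.35 ± 0.28 (SE) turned to 0.02 without NK scramble replicate 1. It was -0.65 without NK scramble replicate 2, -0.06 without NK shADAR1 replicate 1 and -0.71 without NK shADAR1 replicate 2.

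INHBE, which encodes the beta E subunit of activin, a secreted factor of the TGF-beta family best known from liver, was the least abundant member per length. It was at 14.7 and 11.6 CPM in the controls and at 4.50 and 8.11 CPM after knockdown, with both knockdown libraries below both controls. Group means were 13.2 ± 2.19 and 6.31 ± 2.56 CPM (SD, n = 2), and the log2 fold change was -1.06 ± 0.31 (SE), or -0.70 without NK shADAR1 replicate 1. Like ATF3 and DDIT4, it was lower in NK shADAR1 replicate 1 than in replicate 2, here 1.80-fold.

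Over the 10 members, the fitted log2 fold changes ran from -1.20 to -0.22 with a median of -0.49, beside a median of 2.8e-05 over all tested genes. Both knockdown libraries were below both controls in 7 members, as in 12.6% of tested genes, and above both controls in 0 members, against 13.3% of tested genes. The overlapping members were DDIT4, TRIB3 and CEBPB. With calls made at a fold change of 1.5 or more and an adjusted p under 0.05, edgeR's quasi-likelihood test gave 0 of 11810 genes (0%) and 0 members, whose adjusted p was 1.00 each. DESeq2 called 0 of 15605 genes and 0 members. The study reports differentially expressed genes at the same thresholds with DESeq2, and why the outcomes differ was not tested. At an unadjusted p under 0.05, 4 members were lower in edgeR (ATF3, CEBPB, SESN2 and INHBE) and 0 higher, where 0.779% of tested genes were lower and 1.70% higher. DESeq2 also gave 4 members, all lower, with TRIB3 in the place of CEBPB, where 0.622% of its 15605 tested genes were lower and 1.23% higher. Since the members were chosen on this contrast, nothing is read from these counts.

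**Figure D2:**
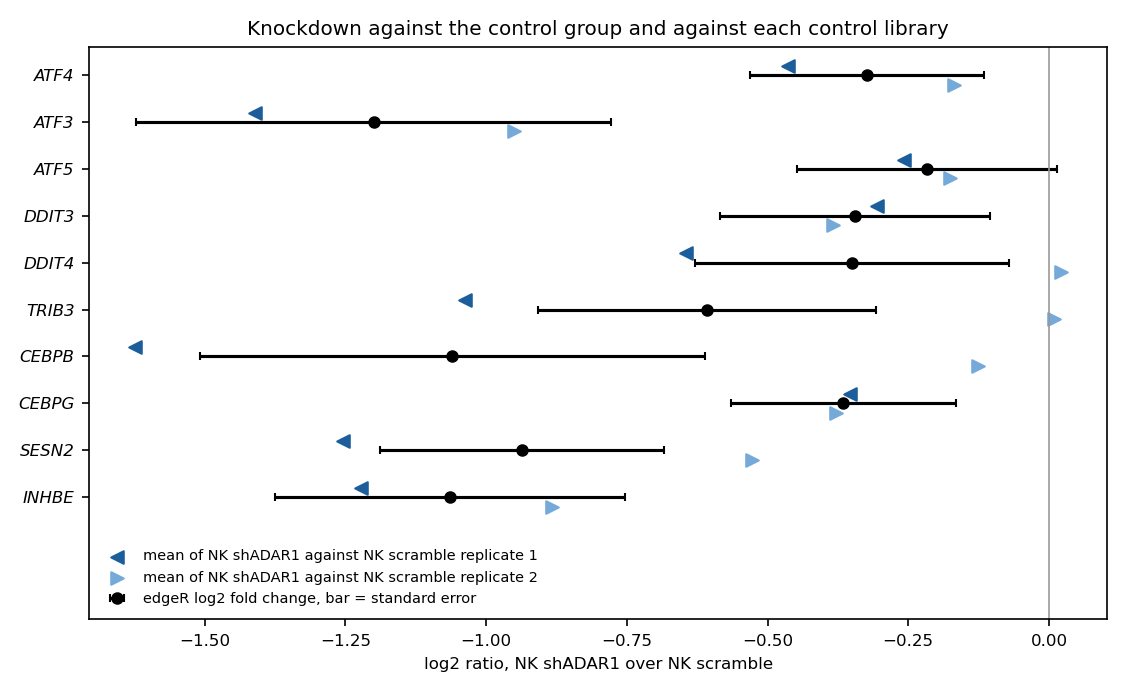
Log2 ratio of NK shADAR1 over NK scramble for each member: the edgeR value with its standard error (circle and bar) and the mean CPM of the knockdown libraries against each control library apart (triangles). The triangles lie closest together for CEBPG, then DDIT3 and ATF5, and lie farthest apart for CEBPB and TRIB3, where the ratio against NK scramble replicate 2 is -0.13 and 0.0089.

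The comparison depended on which control was used. Both NK shADAR1 libraries were below NK scramble replicate 1 in 10 of 10 members, as in 31.5% of tested genes, and below NK scramble replicate 2 in 7 of 10, as in 30.0% of tested genes. Against replicate 1 the median log2 ratio of the knockdown mean was -0.84, and against replicate 2 it was -0.28, beside 0.02 and -0.0036 over all tested genes. Without NK scramble replicate 1 the fit gave a median of -0.28 with 8 of 10 members below 0, as were 50.3% of all genes fitted. Without NK scramble replicate 2 the median was -0.85, all 10 were below 0, as were 47.7% of all genes fitted, and CEBPB was 1 of 2 genes called among 12165 (0.0164%, adjusted p = 0.0174 in edgeR). In that fit the lone control library was assumed to vary like the knockdown pair.

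The control libraries themselves differed in these genes. NK scramble replicate 1 exceeded replicate 2 at least 1.5-fold in 4 members, CEBPB, TRIB3, SESN2 and DDIT4, as did 9.18% of tested genes. It was the highest of all 4 libraries in 8 members and in 26.5% of tested genes, the exceptions being CEBPG and DDIT3. The median difference between the controls was 0.40 on the log2 scale over the members and -0.0024 over all tested genes. Within the knockdown group the median difference was -0.17, and 3 members, ATF3, INHBE and DDIT4, were at least 1.5-fold lower in replicate 1, as were 6.82% of tested genes. CEBPB and ATF5 went the other way there. With 1 library against 1, these differences carry no test.

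**Figure D3:**
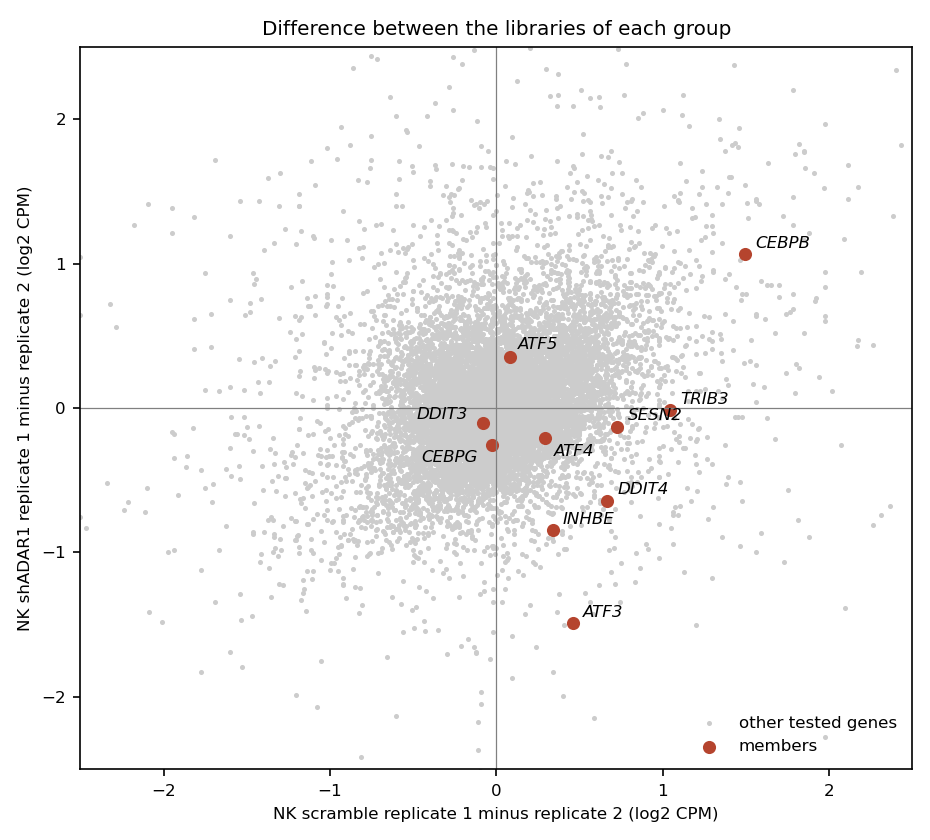
Difference in log2 CPM between the NK scramble libraries (horizontal) and between the NK shADAR1 libraries (vertical) for the members (labelled) and all other tested genes (grey), with 88 genes beyond the axis limits of 2.5. TRIB3 and SESN2 lie to the right at near 0 on the vertical axis, CEBPB is high in replicate 1 of both groups, and ATF3 is lowest in NK shADAR1 replicate 1.

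Genes that ATF4 is known to control were examined through lists of the pathway. Over all tested genes, 5905 of 11810 had a log2 fold change below 0. At an unadjusted p under 0.05, 0.779% were lower in edgeR and 0.622% in DESeq2. These shares stand beside the counts of every list below. The lists were chosen with earlier results of these data known, so nothing is read from their counts. With all 4 libraries, the list of amino acid transporters had the lowest median log2 fold change of the lists, -0.44, with all 9 tested genes below 0. NK scramble replicate 1 exceeded replicate 2 there too, by a median of 0.44 on the log2 scale, and without it the median fold change was -0.18. The rank of this list rested on that library. Without it the lowest median was -0.30, of the other known ATF4 targets, and the IRE1-XBP1 and ATF6 branch targets also had -0.18. SLC7A5, the leucine carrier, was at 234 and 127 CPM in the controls and 128 and 109 CPM after knockdown. Like TRIB3 it was high in NK scramble replicate 1 alone, and its log2 fold change of -0.61 ± 0.27 (SE) was -0.10 without that library. SLC1A5, a glutamine carrier, was at 525, 344, 281 and 289 CPM in the same order, with both knockdown libraries lower and a log2 fold change of -0.61 ± 0.23 (SE). SLC7A11, the cystine carrier, was at 24.3, 14.6, 14.5 and 11.6 CPM, with a log2 fold change of -0.58 ± 0.27 (SE). Without NK scramble replicate 1 the values were -0.27 for SLC1A5 and -0.17 for SLC7A11. In edgeR 2 genes of this list had an unadjusted p under 0.05, SLC1A5 and SLC3A2, and in DESeq2 SLC7A5 as well, all lower.

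Among 11 tested genes of amino acid and one-carbon synthesis the median log2 fold change was -0.31, 10 were below 0, and 3 had an unadjusted p under 0.05 in both edgeR and DESeq2, all lower (PSAT1, MTHFD2 and GPT2). PSAT1, of serine synthesis, was at 184 and 120 CPM in the controls and 78.4 and 108 CPM after knockdown. GPT2, a mitochondrial alanine transaminase, was at 72.1, 38.3, 26.5 and 35.8 CPM in the same order. Both genes had their highest value in NK scramble replicate 1 and their lowest in NK shADAR1 replicate 1, and their log2 fold changes were -0.70 ± 0.25 (SE) and -0.83 ± 0.29 (SE). Without NK scramble replicate 1 these were -0.36 and -0.30, and the median of the list was -0.16. ASNS, the asparagine synthetase that is a classical ATF4 target, was low at 5.06, 5.24, 6.31 and 3.24 CPM and did not separate the groups. PHGDH, the first enzyme of serine synthesis, had at most 3 counts in any library and was not tested.

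The 13 tRNA synthetase genes had a median of -0.16, with 12 below 0. WARS1, the tryptophan enzyme that interferon also induces, was at 429 and 301 CPM in the controls and 198 and 212 CPM after knockdown. Its log2 fold change was -0.83 ± 0.22 (SE), or -0.55 without NK scramble replicate 1. It was the list's 1 gene at an unadjusted p under 0.05 in either tool. EPRS1 went the other way, with 203, 152, 246 and 198 CPM and a log2 fold change of 0.32 ± 0.22 (SE), and AARS1 overlapped between the groups, with 225, 195, 145 and 226 CPM. Of 20 other known targets, 11 were tested and had a median of -0.27. There, 4 genes had an unadjusted p under 0.05 in edgeR, GPT2 again, VEGFA, GADD45A and HERPUD1, each lower, and the same genes except VEGFA in DESeq2. VEGFA, the vascular growth factor, was at 2.28 and 1.30 CPM in the controls and 0.763 and 0.803 CPM after knockdown. Its log2 fold change was -1.19 ± 0.50 (SE), or -0.73 without NK scramble replicate 1. DDR2 was near 1 CPM throughout (1.10, 0.356, 1.48 and 0.830 CPM), without separation. CHAC1, a glutathione-degrading enzyme induced by ATF4, had at most 2 counts and GDF15 at most 13, so neither could be followed here. None of these genes was called by edgeR after adjustment.

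**Figure D4:**
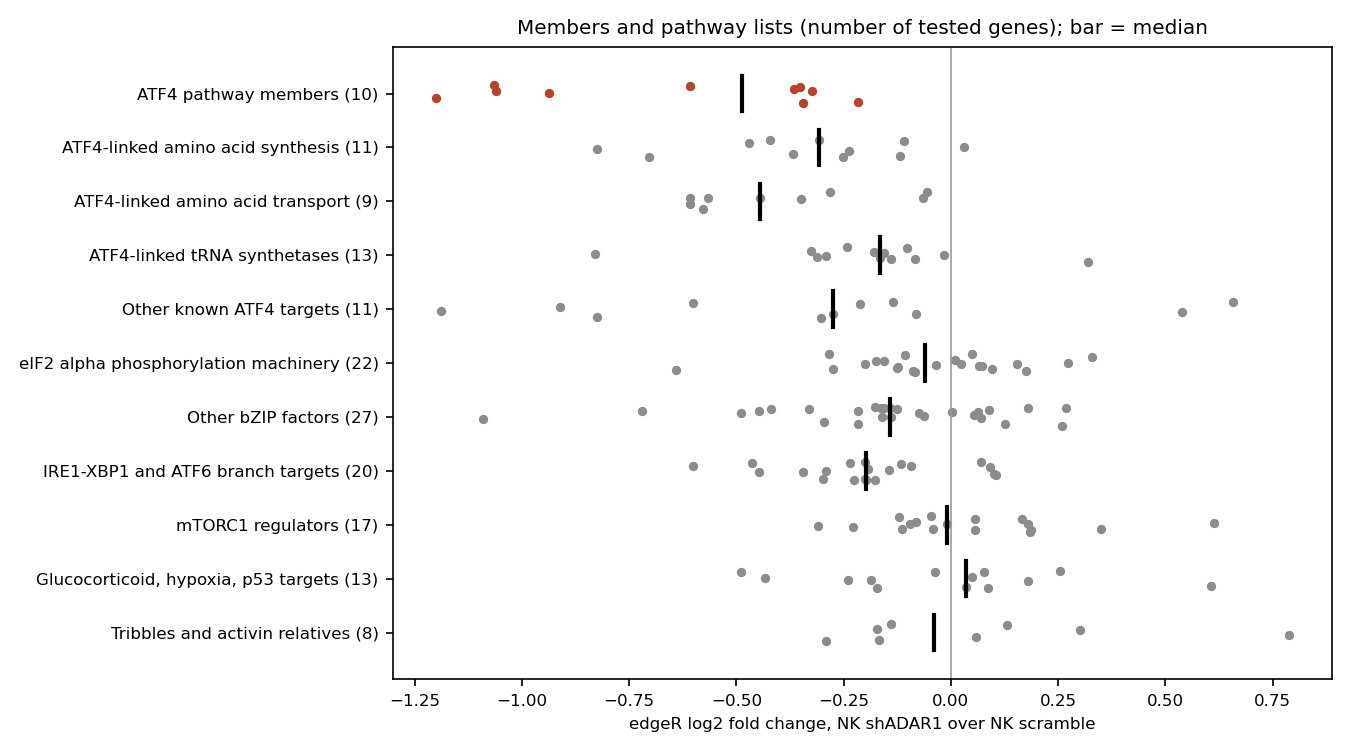
EdgeR log2 fold change, NK shADAR1 over NK scramble, of every tested gene (points) in the members and in 10 pathway lists, with the median of each as a bar. The medians are -0.49 for the members, -0.44 for amino acid transport, -0.31 for amino acid synthesis and -0.06 for the eIF2 alpha machinery.

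Upstream of ATF4, the kinases, phosphatases and eIF2 or eIF2B subunits that set eIF2 alpha phosphorylation had a median of -0.06 over 22 tested genes, of which 0 had an unadjusted p under 0.05 in edgeR and 1, EIF2AK2, in DESeq2. EIF2AK2, which encodes PKR and is itself induced by interferon, was at 123 and 149 CPM in the controls and 116 and 58.3 CPM after knockdown, with a log2 fold change of -0.64 ± 0.30 (SE) that was -0.23 without NK shADAR1 replicate 2 and -1.22 without NK shADAR1 replicate 1. Its lowest library was NK shADAR1 replicate 2. EIF2AK4, which encodes GCN2, was barely detected at 0.153 to 0.426 CPM. DNAJC3, an inhibitor of these kinases, overlapped between the groups, at 42.2, 57.3, 51.3 and 35.2 CPM.

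The IRE1-XBP1 and ATF6 branches serve protein folding in the endoplasmic reticulum beside the PERK-ATF4 branch. Their targets had a median of -0.20 over 20 genes, with 16 below 0. Both knockdown libraries were below both controls in 10 of them and above both in 1, beside 12.6% and 13.3% of tested genes. They were also below both controls in 6 of 11 genes of amino acid synthesis and 4 of 9 of transport. The same held for 6 of 13 tRNA synthetases and 5 of 11 other ATF4 targets. HSPA5, the chaperone BiP, was at 727 and 800 CPM in the controls and 463 and 644 CPM after knockdown, a log2 fold change of -0.46 ± 0.23 (SE). HERPUD1, of protein degradation at the endoplasmic reticulum, was at 58.2, 52.3, 30.2 and 42.6 CPM, a log2 fold change of -0.60 ± 0.22 (SE). In both genes NK scramble replicate 1 did not stand apart as it did for TRIB3, and the lower values were those of NK shADAR1 replicate 1. MANF, secreted under such stress, overlapped between the groups at 91.1, 117, 64.4 and 106 CPM. XBP1 and HERPUD1 were the genes of this list at an unadjusted p under 0.05 in edgeR, and HSPA5 joined them in DESeq2, all lower. Without NK shADAR1 replicate 1 the log2 fold change was -0.24 for HSPA5 and -0.37 for HERPUD1.

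Other bZIP factors had a median of -0.14 over 27 tested genes, with 1 gene, XBP1, at an unadjusted p under 0.05 in either tool. CEBPD was high in the replicates numbered 1 of both groups, at 10.5 and 12.2 CPM, against 4.12 and 3.0 CPM in those numbered 2. JUND followed the same order, at 127 and 121 CPM against 66.3 and 51.1 CPM. BATF3 was at 2.25 CPM in NK scramble replicate 1 and at 0.636, 0.737 and 0.616 CPM in the other libraries. CEBPB shared the excess of replicate 1 with CEBPD and JUND, while BATF3 had the single high library seen for TRIB3.

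Relatives of the induced regulators had medians near 0. The mTORC1 regulators around SESN2 and DDIT4 had a median of -0.0093 over 17 tested genes, and the glucocorticoid, hypoxia and p53 targets, which stand for other inducers of DDIT4, 0.03 over 13. The Tribbles and activin relatives had a median of -0.04 over 8. These 3 lists held 0 genes at an unadjusted p under 0.05 in edgeR and 0 in DESeq2. RHEB, which activates mTORC1, was at 154, 120, 103 and 119 CPM, TSC1 at 25.4, 31.3, 44.0 and 28.3 CPM, and CASTOR1 was under 1 CPM with 0 in 2 libraries. PDK1 was at 30.6, 47.5, 25.2 and 44.2 CPM, ANKRD37 at 3.38, 3.77, 2.67 and 4.87 CPM, and ZBTB16 under 1 CPM. TRIB1, the Tribbles relative, was at 2.96, 2.06, 3.69 and 2.49 CPM, and the activin receptor genes ACVR2A (1.71 to 2.65 CPM) and ACVR2B (0.301 to 0.830 CPM) overlapped between the groups.

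The genes whose pattern over the 4 libraries was most like the mean of the members were sought by Euclidean distance between centred log2 CPM values. The nearest 6 genes outside the members were FLVCR2, DESI1, SLC3A2, ANKEF1, MPZL1 and SAMD15, at distances of 0.0811 to 0.116, while the members themselves lay 0.303 (SESN2) to 1.20 (CEBPB) from their mean. SLC3A2 encodes the heavy chain that pairs with the carriers SLC7A5 and SLC7A11, and it was at 225 and 165 CPM in the controls and 122 and 141 CPM after knockdown. DESI1 was at 164, 115, 85.4 and 103 CPM and MPZL1 at 20.8, 14.9, 10.4 and 13.3 CPM in that order. FLVCR2, ANKEF1 and SAMD15 did not exceed 1.15 CPM. With 4 libraries, likeness of this kind is a description only.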

How the data were processed

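NK scramble and NK shADAR1 cells (2 libraries each) were compared. Reads were trimmed with fastp 0.18.0 per the submitters' processing notes, and what aligned and counted them, on which build, is not given in the sources used here. Each gene has an estimated count (unnormalized, sometimes fractional) in the table the authors deposited. Beside it stands the authors' deposited FPKM, scaled for length and depth. Of 20323 Ensembl identifiers, 20301 matched a gene symbol.

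Counts were rounded, filtered with filterByExpr (minimum count 10), scaled by TMM and tested in R 4.3.3 with edgeR 4.0.16 (quasi-likelihood, no covariates, Benjamini-Hochberg over 11810 genes). The standard error is the log2 fold change divided by the square root of the F statistic. Log2 CPM used a prior count of 2. FPKM served to order members by level and, with 0.1 added, as an alternative measure of the differences between replicates. Alternatives were DESeq2 1.42.0, RLE scaling, no filter beyond 1 count, a mean of 50 counts, a replicate block, each library left out, a prior count of 0.5 and FPKM plus 0.1. Scripts were tested on simulated counts.

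With 2 libraries a group, p-values measure only the spread between these libraries, and Poisson intervals cover counting error only. Members and lists were chosen with earlier results of these data known. From each list the text names the 3 tested genes with the largest range of log2 CPM, and the 6 tested genes nearest the members' mean pattern. MTHFD2, GADD45A, XBP1, PHGDH, CHAC1 and GDF15 fall outside that rule and were chosen after their values were seen. Gene overlaps are from GENCODE release 29 (GRCh38), and promoters from RefSeq (GRCh38.p14).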

Additional observations from a re-analysis of the deposited data

How the results depend on the processing

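The median log2 fold change of the members stayed below 0 in the 9 fits other than the reported one. The prior count and FPKM alternatives were run only on differences between replicates. The median was between -0.49 and -0.44 with DESeq2, RLE scaling, both other filters and the replicate block, and between -0.85 (without NK scramble replicate 2) and -0.28 (without NK scramble replicate 1) with 1 library left out. DDIT4 and TRIB3 turned to 0.02 and 0.0061 without NK scramble replicate 1. With NK scramble replicate 1 set aside, both knockdown libraries were below the remaining control in 7 members, beside 30.0% of tested genes. Setting NK scramble replicate 2 aside gave 10 members, beside 31.5% of tested genes, and keeping all 4 libraries gave 7 members, beside 12.6%. Such separation is easier to meet with fewer libraries, so nothing is read from the rise to 10. This alternative was chosen after seeing the data. Over all genes, the replicate block raised the genes called from 0 to 13 and those at an unadjusted p under 0.05 from 293 to 681. Leaving out 1 library gave 1 to 47 genes called (47 without NK scramble replicate 1, 2 without replicate 2, 16 without NK shADAR1 replicate 1 and 1 without replicate 2) and 204 to 692 at an unadjusted p under 0.05. No member was called under the block in edgeR, where CEBPB had the smallest adjusted p of 0.0521. There, 6 of 10 members had an unadjusted p under 0.05, beside 681 of 11810 tested genes. In the reported fit these were 4 members and 293 genes. The labels give no pairing beyond the number, and the differences between replicates 1 and 2 correlated at r = 0.308 between the groups across genes, which are not independent replicates. Log2 CPM correlated more closely between libraries of the same number (r = 0.985 and 0.9885) than within NK scramble (0.9814) or NK shADAR1 (0.9812). Taken by number, the members' median log2 difference of knockdown from control was -1.02 for replicate 1 and -0.35 for replicate 2. Over all tested genes these medians were 8.0e-05 and 0.0012. The least abundant member value rests on 104 counts (ATF3), and 2 libraries a group limit every comparison.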
